A study of Mus musculus with 6 samples.

Results

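The genes described here are 40 interferon response genes, measured by RNA-seq in the duodenum of control mice and of mice with a mutant form of Nkx2.2 in the intestine. They were chosen by symbol, as a set of well-known interferon-induced genes and regulators, with earlier results of these data known. All 40 were found among the 23235 gene symbols of the expression tables, each in 1 row, and all 40 averaged at least 0.2 FPKM, the minimum for testing. FPKM are numbers of sequenced fragments scaled to the length of the transcript and to the size of the library. The tissue was the first 2 cm of duodenum of mice aged 6 weeks on a mixed background. Nkx2.2 (gene symbol Nkx2-2) is a homeodomain factor that gut and pancreatic endocrine cells need to choose their fate, and SD is the mutant allele that gives the SDint mutants their name. Control 1 was Nkx2.2flox/+; Rosa26Tomato/+, control 2 was Rosa26Tomato/+ and control 3 was wild type. Mutants 1 and 3 were Nkx2.2flox/SD; Villin-Cre/+; Rosa26Tomato/+, and mutant 2 was Nkx2.2flox/SD; Villin-Cre/+. Villin-Cre acts in intestinal epithelium, where it removes the floxed copy and leaves the SD copy, and the SD copy is also present in the other cells of the mutants. No control carried Villin-Cre or SD, so Cre, loss of the floxed copy and the SD allele cannot be told apart. The labels do not say that each library is a separate mouse. They were taken as 6 mice, and p-values measure the spread between these libraries.

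Interferons are secreted proteins that cells release on sensing viral nucleic acid (type I and type III) or that lymphocytes release when activated (type II, interferon gamma). Their receptors activate JAK kinases, which phosphorylate STAT proteins. Type I and type III signals reach promoters through the interferon-stimulated response element (ISRE), bound by a complex that holds IRF9, and interferon gamma acts through the gamma-activated site (GAS). In the intestine, epithelial cells respond mainly to type III interferon, cells of the lamina propria respond to type I, and many cell types respond to interferon gamma, so RNA of whole duodenal wall mixes these sources.

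Promoter sequences, available for 29 of the 40 genes, show an element that most of these 29 have in common. RefSeq promoters on the GRCm38.p6 build, each 300 bases with 250 before and 50 after the gene's start, were matched by symbol for 29 of the 40 genes. Those without a match were Oas2, Mx1, Mx2, Zbp1, Usp18, Dhx58, Gbp6, Parp9, Parp14, Rtp4 and Iigp1. The ISRE was searched as 2 copies of GAAA separated by any 2 bases, on either strand (2 copies of TTTC when the match lies on the other strand), and was present for 18 of the 29 genes (62.1%), against 3.99% of the 27025 genes with a promoter. The GAS was searched as TTC and GAA separated by any 3 bases and was present for 8 of 29 (27.6%), against 9.55% of those 27025. Both were present for 5 genes and neither for 8. A match is a description of the letters, and no binding was measured.

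The windows below are 50 bases, written 5′ to 3′ in the direction of the gene, with 1 match in capitals. The Isg15, Ifit1 and Irgm1 windows hold further ISRE matches, outside the capitals or overlapping them. The Igtp and Irgm2 windows also hold a GAS match, left in lower case. The first pair are type I interferon targets, Isg15 and Ifit1.
Isg15 (chr4:156200855-156200904, minus strand): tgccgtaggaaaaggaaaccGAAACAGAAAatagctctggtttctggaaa
Ifit1 (chr19:34640784-34640833, plus strand): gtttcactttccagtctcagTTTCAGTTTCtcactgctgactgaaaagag
The next belong to GTPase genes that had their highest level in 1 and the same library, as described further on.
Igtp (chr11:58199502-58199551, plus strand): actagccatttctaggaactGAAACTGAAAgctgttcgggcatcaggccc
Irgm2 (chr11:58214893-58214942, plus strand): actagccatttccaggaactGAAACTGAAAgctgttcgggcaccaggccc
Irgm1 (chr11:48871421-48871470, minus strand): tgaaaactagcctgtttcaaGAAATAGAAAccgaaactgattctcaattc
Gbp2 (chr3:142620584-142620633, plus strand): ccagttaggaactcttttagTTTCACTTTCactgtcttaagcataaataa
Gbp7 (chr3:142530263-142530312, plus strand): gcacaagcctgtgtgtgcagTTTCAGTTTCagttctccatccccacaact
The last is from Irf1, the most abundant of the 40 genes, which had a GAS match.
Irf1 (chr11:53769904-53769953, plus strand): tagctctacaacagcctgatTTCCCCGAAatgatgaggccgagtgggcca

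The Igtp and Irgm2 windows are identical at 48 of 50 positions, and the aligned promoters of these neighbouring genes at 184 of 270 (68.1%). By family, the ISRE was found for 3 of the 3 GBP genes with a promoter, 3 of 4 IRG genes, 4 of 5 genes of the Ifit, Mx and other effector group and 2 of 4 OAS genes. Of the 4 transcription factor genes, 1 had an ISRE match and 1 a GAS match.

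Depth, estimated from isoform coverage, was 19.1 to 22.9 M reads per library (M stands for mega). Nkx2-2, the targeted gene, stood at 1.07, 0.647 and 0.716 FPKM in controls 1 to 3 and at 0.564, 0.772 and 0.909 FPKM in mutants 1 to 3; the groups overlapped, and the level says nothing of which allele was expressed. All 8 epithelial markers and all 6 duodenal markers were detected, among them Pdx1 at 53.5 to 78.5 FPKM. Control 1 and mutant 1 were male by Ddx3y (10.1 and 9.55 FPKM, against at most 0.0230 FPKM in the other 4 libraries), so each group held 1 male and 2 females.

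No interferon response gene passed the test between mutants and controls. With limma on log2(FPKM + 0.1) and adjustment over all 14642 genes tested, 0 of the 40 were called (0% of all genes tested) and the lowest adjusted p among them was 1.0. The mean of log2(FPKM + 0.1) was lower in mutants for 32 of the 40 genes (80%, against 48.8% of all genes tested) and higher for 8. The median log2 change, mutant minus control, was -0.11, against 0.0042 over all genes tested. Between libraries of 1 group, the median log2 value of the 40 genes had a pooled SD of 0.18. Genes that move together within a library are not separate observations. The share of lower genes depended on single libraries: 24 of 40 genes had lower mean log2 values without mutant 1 (median change -0.046), 26 without control 3 (-0.068) and 28 without control 2 (-0.11). The number was 33 without control 1, 33 without mutant 3 and 31 without mutant 2. The number over all 14642 genes moved too, from 5811 lower without control 1 to 8193 without control 2, with 7869 without mutant 1. Before adjustment, 2 genes had p under 0.05, Mx2 and Zbp1, both lower (5% of the 40, against 2.84% of all genes at that p in either direction and 0.861% that were also lower). The 3 mutant values lay entirely below the 3 control values for 1 gene, Mx2 (2.5%, against 7.57% of all genes without overlap in either direction and 3.43% lower). In RNA of whole tissue, fewer cells of a type and less RNA per cell cannot be told apart.

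**Figure D1:**
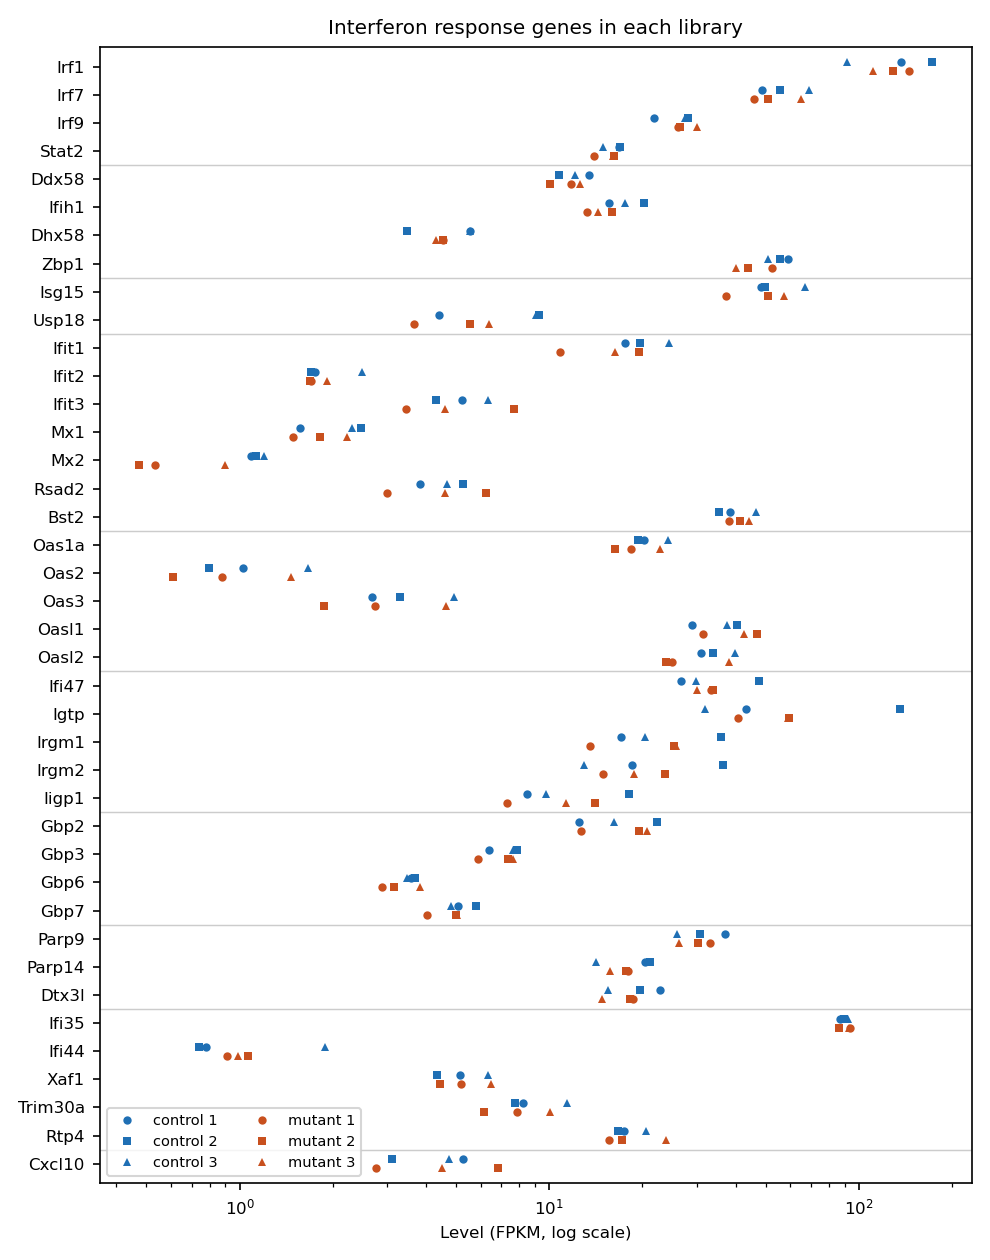
Level of each of the 40 genes in every library, in FPKM on a log axis, with controls in blue and mutants in orange and the replicate number given by the symbol; grey lines separate the roles. Blue and orange symbols overlap for every gene but Mx2, and the 5 IRG genes (Ifi47 to Iigp1) have control 2 farthest to the right.

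In the median, though not gene by gene, the 40 genes had higher levels and varied more between libraries of 1 group than all genes tested. Their median level was 16.7 FPKM, against 7.34 FPKM over all genes tested. The median within-group SD of log2(FPKM + 0.1) was 0.285, against 0.184 over all genes tested, and the highest library stood 1.64 times above the lowest in the median, against 1.41 times. The highest means over the 6 libraries were those of Irf1 (131 FPKM), Ifi35 (90.0 FPKM) and Igtp (61.7 FPKM). Irf7, Isg15 and Zbp1 followed with means of 55.8, 51.8 and 50.3 FPKM and overlapping ranges over the libraries (45.7 to 68.9, 37.2 to 67.2 and 40.2 to 59.2 FPKM). The lowest means were those of Oas2 (1.07 FPKM), Ifi44 (1.06 FPKM) and Mx2 (0.887 FPKM).

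**Figure D2:**
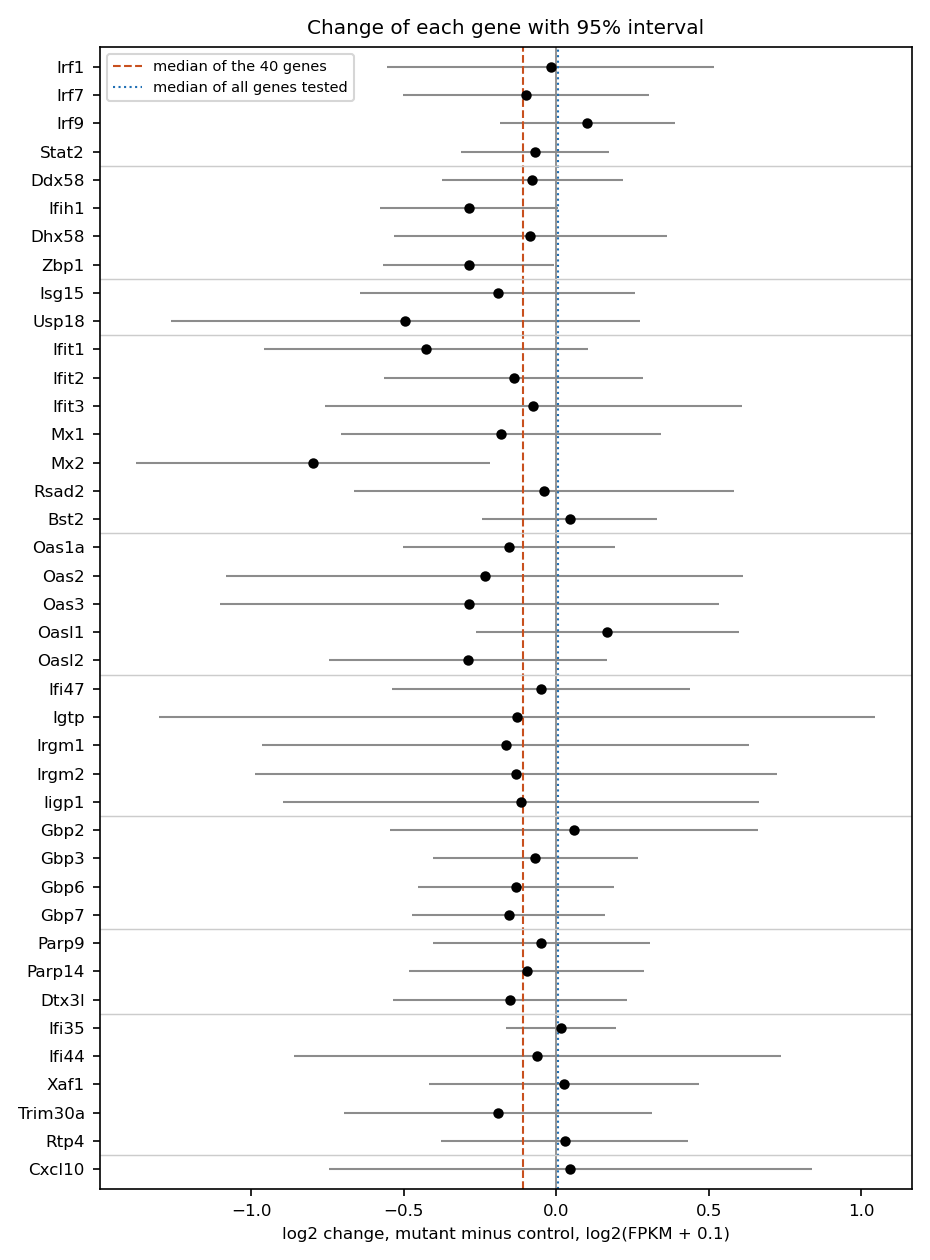
Log2 change of each gene, mutant minus control on the log2(FPKM + 0.1) scale, with its 95% interval from limma (n = 3 libraries a group); the dashed line is the median of the 40 genes (-0.11) and the dotted line that of all genes tested (0.0042). The intervals of Mx2 and Zbp1 lie below 0, before adjustment for the number of genes, and the intervals of the other 38 genes cross 0.

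The transcription factors of the response were at similar levels in both groups. Irf1, whose product binds promoters of interferon gamma targets, stood at 137, 173 and 91.2 FPKM in controls 1 to 3 and at 145, 129 and 111 FPKM in mutants 1 to 3. The highest and the lowest Irf1 values were both controls, and the log2 change was -0.019 with a standard error (SE) of 0.23 (95% interval -0.56 to 0.52; limma, adjusted p = 1.0). Irf9, which encodes the DNA-binding part of the ISRE complex, stood at 21.9, 28.0 and 27.4 FPKM in controls and at 26.1, 26.5 and 30.1 FPKM in mutants. Its log2 change was 0.10 (SE 0.12), and the groups overlapped. Irf7, the master regulator of type I interferon production, ranged from 48.5 to 68.9 FPKM in controls and from 45.7 to 64.9 FPKM in mutants. Stat2 lay between 14.0 and 16.9 FPKM in all 6 libraries. Mean log2 values in mutants were lower for 3 of these 4 genes.

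All 4 sensor genes had lower mean log2 values in mutants, and 1 of them, Zbp1, had an unadjusted p under 0.05. Zbp1, at 2:173032114-173044423 on mm9, encodes a sensor of left-handed Z-form nucleic acid that can start cell death. It stood at 59.2, 55.7 and 50.7 FPKM in controls and at 52.3, 43.8 and 40.2 FPKM in mutants. Only mutant 1 lay inside the control range. The log2 change of Zbp1 was -0.29 (SE 0.12, 95% interval -0.57 to -0.0062), with an unadjusted limma p of 0.0463, an adjusted p of 1.0 and an exact two-sided permutation p of 0.2. Ifih1, which encodes the double-stranded RNA sensor MDA5 and is named after its values were seen, stood at 15.6, 20.2 and 17.6 FPKM in controls and at 13.3, 15.9 and 14.4 FPKM in mutants. Mutant 2 exceeded the lowest control, and the log2 change of Ifih1 was -0.29 (SE 0.12; limma, unadjusted p = 0.0526). Ddx58, encoding the RNA sensor RIG-I, lay at 10.8 to 13.4 FPKM in controls and at 10.1 to 12.5 FPKM in mutants. Dhx58, encoding their relative LGP2, lay at 3.47 to 5.54 FPKM and 4.32 to 4.54 FPKM.

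Isg15 encodes a small ubiquitin-like protein that is attached to other proteins, and Usp18 the protease that removes it and also dampens the type I interferon receptor. Isg15 (4:155573533-155574927 on mm9) stood at 48.3, 49.9 and 67.2 FPKM in controls and at 37.2, 50.9 and 57.3 FPKM in mutants. Usp18 stood at 4.40, 9.28 and 9.03 FPKM in controls and at 3.66, 5.55 and 6.40 FPKM in mutants. Mutant 1 was the lowest library for both genes, and in both the other two mutants lay within the control range. The log2 changes were -0.19 (SE 0.19) for Isg15 and -0.49 (SE 0.33, 95% interval -1.26 to 0.27) for Usp18, with adjusted p of 1.0 in limma. Without mutant 1 they were -0.013 and -0.26, and without control 1 that of Usp18 was -0.84.

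Among 7 antiviral effectors, 6 had lower mean log2 values in mutants, and Mx2 was the gene of the 40 with the smallest p. Mx proteins are dynamin-like GTPases that block viruses, and many inbred laboratory strains carry Mx1 and Mx2 alleles that encode no working protein; the alleles of these mice were not analysed here. Mx2 (16:97757688-97782508 on mm9) stood at 1.09, 1.13 and 1.20 FPKM in controls and at 0.533, 0.474 and 0.898 FPKM in mutants. The controls lay close together and all 3 mutants below them, mutant 3 nearest. The control mean was 1.14 ± 0.0570 FPKM (SD, n = 3) and the mutant mean 0.635 ± 0.230 FPKM (SD, n = 3). The log2 change was -0.80 (SE 0.25, 95% interval -1.38 to -0.22), with an unadjusted limma p of 0.0138 and an adjusted p of 1.0. The exact two-sided permutation p was 0.1, the smallest that 3 libraries against 3 allow. With a pseudocount of 1 the log2 change was -0.40. This difference rested on few reads, an estimated 22 to 56 per library. Its neighbour Mx1 overlapped between groups, at 1.57, 2.46 and 2.31 FPKM in controls and at 1.49, 1.82 and 2.22 FPKM in mutants.

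Ifit proteins bind viral RNA that lacks the marks of host RNA. Ifit1, named after its values were seen, stood at 17.6, 19.6 and 24.3 FPKM in controls and at 10.8, 19.5 and 16.3 FPKM in mutants. Mutants 1 and 3 lay below every control, mutant 2 did not, and the log2 change was -0.43 (SE 0.23, 95% interval -0.96 to 0.11), or -0.19 without mutant 1. Ifit2 lay at 1.70 to 2.48 FPKM in controls and at 1.68 to 1.91 FPKM in mutants. Ifit3 lay at 4.31 to 6.35 FPKM and 3.44 to 7.68 FPKM, with the mutants both lowest and highest. The same held for Rsad2, encoding the antiviral enzyme viperin, at 3.82 to 5.26 FPKM in controls and at 2.99 to 6.26 FPKM in mutants. In both Ifit3 and Rsad2 mutant 1 was the lowest library and mutant 2 the highest. Bst2, which encodes tetherin, a membrane protein that holds budding virus at the cell surface, was the most abundant of the group, at 38.4, 35.2 and 46.7 FPKM in controls and at 38.2, 41.2 and 44.1 FPKM in mutants. Its log2 change was 0.043 (SE 0.12), and the groups overlapped.

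Active OAS enzymes make 2′-5′-linked oligoadenylates that switch on RNase L. Of the 5 OAS and OAS-like genes in the set, 4 had lower mean log2 values in mutants, and none was called. Oasl2 stood at 30.8, 33.8 and 39.8 FPKM in controls and at 24.9, 23.8 and 38.1 FPKM in mutants, a log2 change of -0.29 (SE 0.19). Mutants 1 and 2 lay below every control and mutant 3 did not. Oasl1, encoding an OAS-like protein that restrains IRF7 translation, stood at 28.9, 40.5 and 37.5 FPKM in controls and at 31.4, 46.7 and 42.4 FPKM in mutants, a log2 change of 0.17 (SE 0.18). Oasl1 and Oasl2 are neighbours within 41.0 kb and differed in the sign of their change. Oas1a lay at 19.4 to 24.1 FPKM in controls and at 16.3 to 22.8 FPKM in mutants, Oas2 at 0.795 to 1.66 and 0.611 to 1.47 FPKM, and Oas3 at 2.68 to 4.93 and 1.87 to 4.63 FPKM. For 4 of the 5 genes control 3 was the highest library, and for 4 of the 5 mutant 2 was the lowest. Genes of the OAS, Ifit, GBP and Trim30 families have close copies, and how the authors shared reads among copies is not given in the sources used here.

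Immunity-related GTPases (IRG) and guanylate-binding proteins (GBP) are induced mainly by interferon gamma and attack membranes around intracellular pathogens. Igtp, at 11:58013058-58021094 on mm9, was the most abundant, at 43.1, 136 and 31.8 FPKM in controls and at 40.7, 59.5 and 59.2 FPKM in mutants. Control 2 stood 4.28 times above the lowest library, control 3, and above every mutant. The log2 change of Igtp was -0.13 (SE 0.50, 95% interval -1.30 to 1.04), and without control 2 it was 0.50. The other IRG genes had the same highest library. Irgm2, which with Igtp spans 23.2 kb, stood at 18.5, 36.5 and 12.9 FPKM in controls and at 14.9, 23.6 and 18.7 FPKM in mutants. Irgm1, which regulates the other GTPases, stood at 17.0, 35.9 and 20.4 FPKM in controls and at 13.5, 25.2 and 25.7 FPKM in mutants. Iigp1 ranged from 8.47 to 18.1 FPKM in controls and from 7.33 to 14.1 FPKM in mutants, and Ifi47, whose locus overlaps Olfr56 (0.0651 and 0.114 FPKM in the group means), from 26.6 to 47.5 FPKM and from 30.1 to 33.9 FPKM.

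Within the GBP genes, Gbp7 stood at 5.06, 5.79 and 4.82 FPKM in controls and at 4.04, 4.99 and 5.03 FPKM in mutants, a log2 change of -0.16 (SE 0.13). Mutant 1 alone lay outside the control range. Gbp2 had the widest range of the 4, at 12.4 to 22.3 FPKM in controls and at 12.6 to 20.7 FPKM in mutants. Gbp3 lay at 6.38 to 7.86 FPKM and 5.87 to 7.64 FPKM, and Gbp6 at 3.48 to 3.69 FPKM and 2.89 to 3.82 FPKM. Of these 9 GTPase genes 8 had lower mean log2 values in mutants, and none was called. This direction depended on control 2. Without that library the log2 change was positive for Ifi47 (0.20), Igtp (0.50), Irgm1 (0.15), Irgm2 (0.28), Iigp1 (0.21) and Gbp2 (0.28). It stayed negative for Gbp3 (-0.011), Gbp6 (-0.11) and Gbp7 (-0.081).

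The families did not peak in the same library. Control 2 was the highest library for all 5 IRG genes and 3 of the 4 GBP genes, and it was the highest for 11.3% of all genes tested. Control 3 was the highest for 4 of 5 OAS genes and 4 of 7 effector genes, and for 13.3% of all genes tested. Mutant 1 was the lowest library for 16 of the 40 genes, 4 of the 7 effectors among them, and for 11.9% of all genes tested. In log2 units, the median deviation of the IRG genes from their own means was 0.71 in control 2, -0.43 in mutant 1 and -0.34 in control 1. That of the OAS genes was 0.35 in control 3 and -0.39 in mutant 2, and that of the effectors was 0.31 in control 3 and -0.55 in mutant 1. Among the mutants, the highest median deviation was 0.21 in mutant 2 for the IRG genes. For the OAS genes it was 0.29 in mutant 3, and for the effectors 0.045 in mutant 3. Over all genes tested the median deviation lay between -0.054 and 0.075 in every library. These patterns were seen in the values and carry no test. The summed FPKM of 10 markers of T cells and intraepithelial lymphocytes was 308 to 409 in controls, highest in control 2, and 291 to 428 in mutants, highest in mutant 1. The sum over 9 macrophage markers was 406 to 489 in controls and 394 to 496 in mutants, and that over 8 dendritic cell markers 13.3 to 17.1 and 15.0 to 17.9. No marker of these lists was at 0 in all libraries, and 0 were called. Mean log2 values in mutants were lower for 9 of 10 lymphocyte markers (median log2 change -0.096) and 9 of 9 macrophage markers (-0.035). Of the 8 dendritic cell markers, 4 were lower and 4 higher. The part of these cells in the pattern was not tested. Of 6 markers of B and plasma cells, 5 had higher mean log2 values in mutants and 0 were called. The summed FPKM of these 6 markers was 1455 to 1649 in controls and 1488 to 2050 in mutants. Groups did not overlap for 1 macrophage, 1 dendritic cell and 2 B and plasma cell markers (7.57% of all genes tested).

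**Figure D3:**
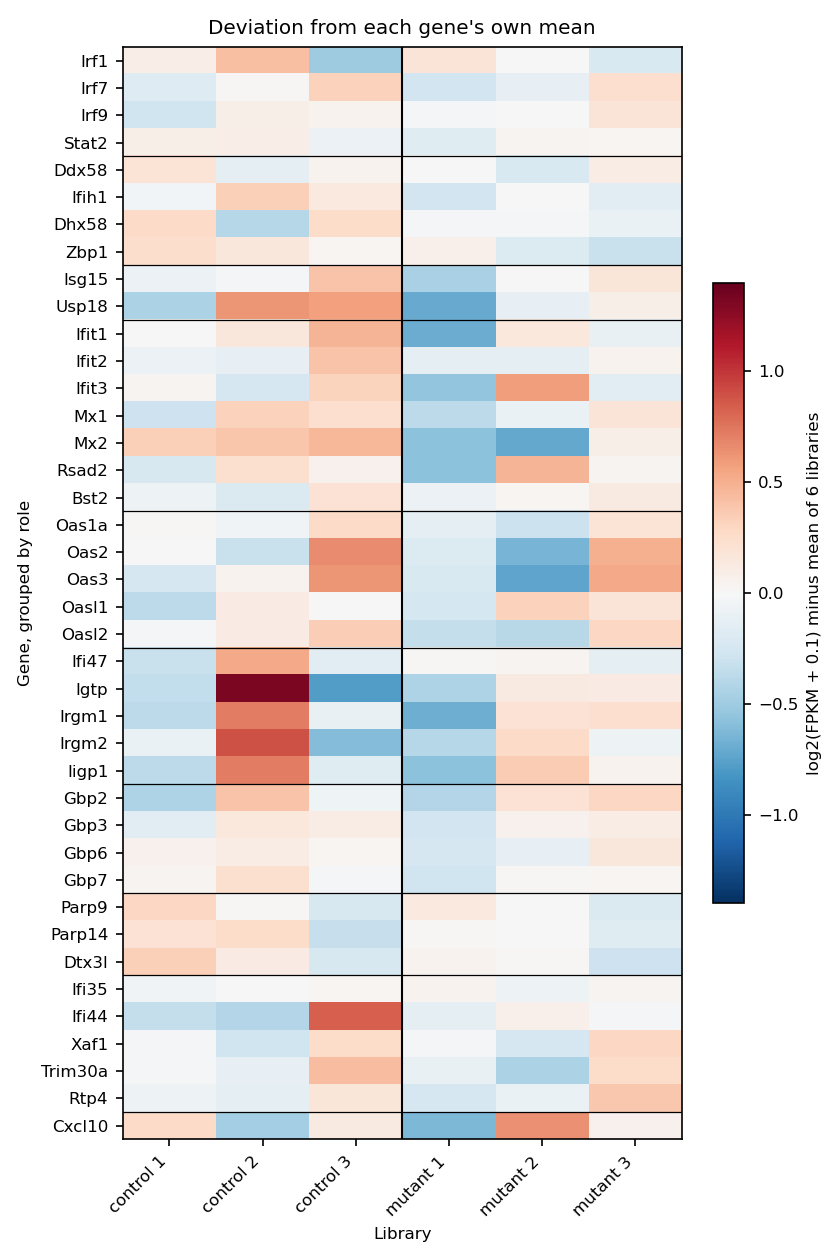
Deviation of each gene from its own mean over the 6 libraries, in log2 units of FPKM + 0.1, red above and blue below, with genes grouped by role and the black vertical line between controls and mutants. The IRG genes are reddest in control 2, Oas2, Oas3 and Ifi44 in control 3, and most of the Ifit and Mx genes are blue in mutant 1.

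**Figure D4:**
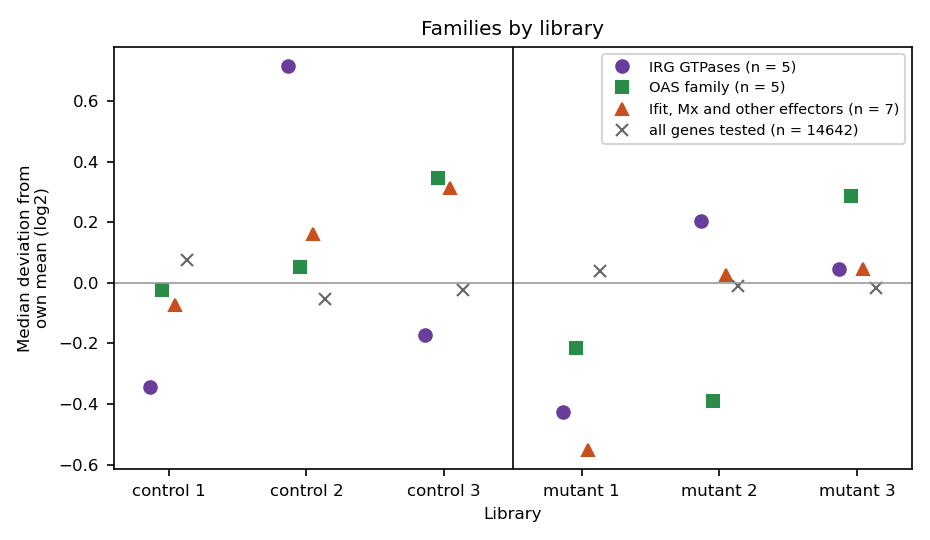
Median log2 deviation of the IRG, OAS and effector genes (Ifit, Mx, Rsad2 and Bst2) from their own means in each library, with all 14642 genes tested as crosses. The IRG genes stand at 0.71 in control 2 while the OAS genes there stand at 0.051, and the crosses stay close to 0.

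The ADP-ribosyltransferase genes Parp9 and Parp14 and the ubiquitin ligase gene Dtx3l, whose product pairs with PARP9, lie together on chromosome 16 within 140 kb. All 3 had slightly lower mean log2 values in mutants. Parp9 stood at 36.9, 30.6 and 25.8 FPKM in controls and at 33.2, 30.3 and 26.2 FPKM in mutants, a log2 change of -0.049 (SE 0.15). Dtx3l stood at 22.8, 19.6 and 15.5 FPKM in controls and at 18.6, 18.3 and 14.8 FPKM in mutants, a log2 change of -0.15 (SE 0.16). Both genes were lowest in library 3 of each group and highest in library 1. The loci of Parp9 and Dtx3l overlap, so reads in the shared part could not be assigned without strand. Parp14 lay at 14.2 to 21.1 FPKM in controls and at 15.7 to 17.9 FPKM in mutants.

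Ifi35, whose product is an interferon-induced leucine zipper protein, varied least of the 40 genes by the ratio of its highest to its lowest library. It stood at 87.1, 89.4 and 92.0 FPKM in controls and at 93.2, 85.9 and 92.6 FPKM in mutants, a log2 change of 0.017 (SE 0.077, 95% interval -0.16 to 0.20). The highest Ifi35 value was 1.08 times the lowest. Trim30a, encoding a ubiquitin ligase of the TRIM family, stood at 8.23, 7.73 and 11.4 FPKM in controls and at 7.84, 6.16 and 10.0 FPKM in mutants, a log2 change of -0.19 (SE 0.22). Ifi44 was at 1.88 FPKM in control 3 and between 0.737 and 1.06 FPKM in the other 5 libraries. Xaf1, encoding a protein that counters an inhibitor of apoptosis, lay at 4.33 to 6.32 FPKM in controls and at 4.44 to 6.48 FPKM in mutants, and Rtp4, a chaperone of membrane receptors, at 16.7 to 20.6 FPKM and 15.6 to 23.8 FPKM. Cxcl10, the chemokine of the set, draws activated T cells and stood at 5.25, 3.09 and 4.75 FPKM in controls and at 2.77, 6.81 and 4.51 FPKM in mutants. Mutants gave both the lowest and the highest Cxcl10 value, and the log2 change was 0.046 (SE 0.34, 95% interval -0.75 to 0.84). The Cxcl10 locus overlaps Art3 (4.16 FPKM in controls, 4.62 FPKM in mutants), and the strand of reads was not available to separate them.

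The genes upstream of this response gave 0 calls as well. A chosen list of 11 interferon symbols was searched, and 9 of them had values. Of these 9, 7 were listed at 0 in all 6 libraries (Ifna1, Ifna2, Ifna4, Ifnb1, Ifne, Il28a and Il28b), and Ifnk was at most 0.0859 FPKM. Ifng, encoding interferon gamma, was the only ligand of this list that could be tested. It stood at 0.141, 0.205 and 0.0943 FPKM in controls and at 0.368, 0.320 and 0.131 FPKM in mutants. These Ifng values rest on an estimated 2 to 7 reads per library, and the groups overlapped. Control 2, where the IRG genes were highest, had the highest Ifng value of the controls and a lower one than mutants 1 and 2. All 6 receptor genes were expressed and 4 had lower mean log2 values in mutants; Ifngr2 stood at 117 to 141 FPKM in controls and at 121 to 145 FPKM in mutants, Ifnar2 at 21.9 to 25.9 and 21.4 to 24.9 FPKM, and Il28ra, the type III receptor chain, at 5.03 to 5.61 and 5.14 to 5.81 FPKM.

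Of 20 genes of interferon sensing and signalling outside the set, 8 had lower and 12 higher mean log2 values in mutants (median log2 change 0.038). Jak1, the kinase shared by the 3 types of receptor, stood at 33.7, 32.4 and 32.7 FPKM in controls and at 29.7, 29.5 and 29.3 FPKM in mutants. The groups did not overlap, and the log2 change of Jak1 was -0.16 (SE 0.074; limma, unadjusted p = 0.0664, adjusted p = 1.0). Trim25, encoding a ubiquitin ligase that activates RIG-I, was at 36.4, 37.4 and 36.9 FPKM in controls and at 40.1, 39.0 and 42.3 FPKM in mutants, also without overlap (log2 change 0.13, SE 0.076). Ikbke, a kinase that phosphorylates IRF3, overlapped between groups at 11.8 to 14.3 FPKM and 13.3 to 17.5 FPKM (log2 change 0.26, SE 0.13). These directions were thus mixed. Groups did not overlap for 2 of the 20 genes (10%, against 7.57% of all genes tested).

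A further 45 interferon-induced genes outside the set were tested as a second view of the response. Mean log2 values in mutants were lower for 27 (60%, against 48.8% of all genes tested) and higher for 18. The median log2 change was -0.021, and 0 were called. Eif2ak2, encoding the double-stranded RNA-activated kinase PKR, stood at 16.4, 14.6 and 14.5 FPKM in controls and at 9.99, 12.9 and 12.2 FPKM in mutants. All 3 mutants lay below the controls, with a log2 change of -0.38 (SE 0.12; limma, unadjusted p = 0.0174, adjusted p = 1.0). Gbp4, a guanylate-binding protein, was at 3.82, 3.27 and 4.10 FPKM in controls and at 2.64, 3.09 and 3.15 FPKM in mutants, also without overlap (log2 change -0.32, SE 0.14). Psme2, encoding a proteasome activator subunit induced by interferon gamma, went the other way at 172, 196 and 179 FPKM in controls and at 223, 187 and 220 FPKM in mutants, with overlap (log2 change 0.20, SE 0.10). These 3 were named for having the smallest p in their list. Groups did not overlap for 2 of the 45 genes (4.44%, against 7.57% of all genes tested).

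At the level of transcripts, 9 of the 40 genes had more than 1 RefSeq isoform listed. Of 48 tested isoforms of the 40 genes, 0 were called (0.0279% of all 17922 isoforms tested), 2 had an unadjusted p under 0.05 (3.53% of all), and 3 had groups without overlap (8.5% of all). One of the 3 was NR_003508, the form that carried nearly the whole Mx2 signal. The other two belong to Irf1. Its main form NM_008390 stood at 132, 167 and 87.7 FPKM in controls and at 134, 121 and 104 FPKM in mutants. The minor form NM_001159396 was at 4.98, 4.85 and 3.18 FPKM in controls and at 11.4, 6.87 and 6.70 FPKM in mutants, all 3 mutants above the controls. This minor form made up 3.63%, 2.81% and 3.48% of Irf1 in controls and 7.84%, 5.33% and 6.04% in mutants. Its log2 change was 0.91 (SE 0.27; limma over all isoforms, unadjusted p = 0.0150, adjusted p = 1.0). A rarer form, NM_001159393, was at 0.378, 0.248 and 0.351 FPKM in controls and at 0.391, 0.639 and 0.440 FPKM in mutants.

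One isoform below the minimum level differed more sharply. NM_001146275 of Iigp1 was at 0.206, 0.232 and 0.213 FPKM in controls, an estimated 12.8 to 13.2 reads in each library, and listed at no more than 2.52e-06 FPKM in all 3 mutants. The main Iigp1 form NM_021792 was at 8.27, 17.8 and 9.52 FPKM in controls and at 7.33, 14.1 and 11.3 FPKM in mutants, so the minor form was a small part of the gene. With no minimum level, the minor form was the 1 isoform of the 40 genes that passed (limma, adjusted p = 0.00417), where 34 of all 24510 isoforms passed. All 3 mutant values lay far below the pseudocount, so they had almost no spread on the log scale. The controls were close together as well (12.8 to 13.2 reads). The small SE (0.044) and the adjusted p therefore cannot be read as measures of variation between mice. The minor form was chosen after its values were seen. How reads were divided between isoforms was set in the authors' estimation, and whether these mice differ at Iigp1 in sequence was not analysed here.

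**Figure D5:**
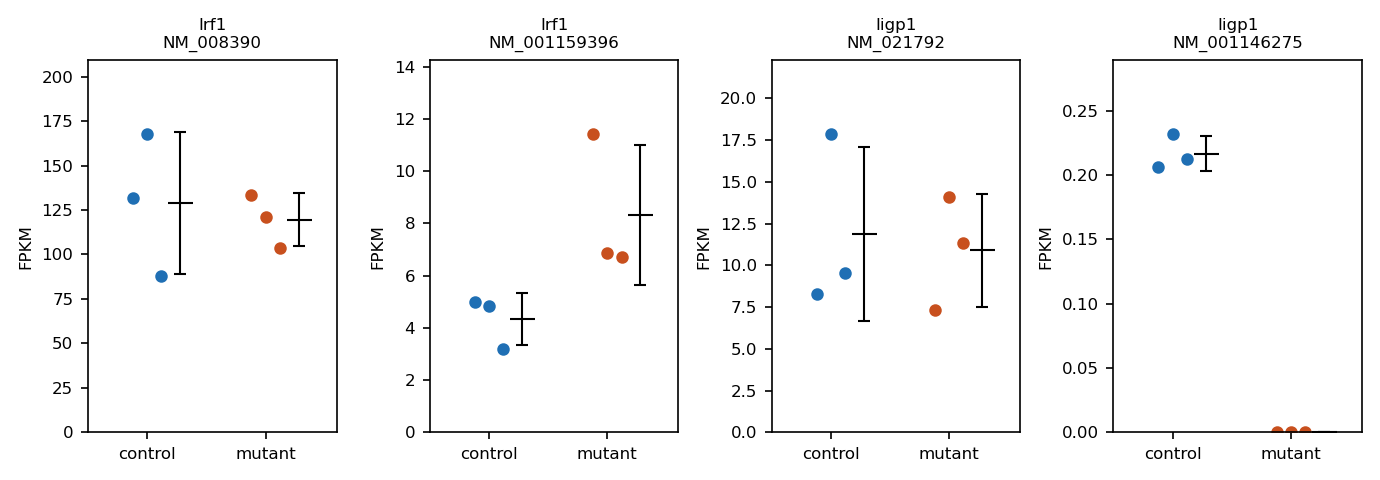
FPKM of the main and a minor isoform of Irf1 and of Iigp1, with 1 point per library, controls in blue and mutants in orange, and the mean with its SD beside the points (n = 3 a group). The minor Irf1 form NM_001159396 is higher in every mutant, the minor Iigp1 form NM_001146275 is near 0 in every mutant, and the main forms overlap between groups.

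In the authors' deposited table of their DESeq comparison, which rests on the same 6 libraries, all 40 genes were listed, 32 with lower and 8 with higher mutant means (50.4% of all listed genes were lower). The adjusted p of that table was 1.0 for each of the 40, so 0 were called (0.0269% of all genes). Before adjustment, the authors' deposited table held 1 of the 40 with p under 0.05, Mx2 (1.12% of all genes, 0.322% that were also lower). For Mx2 the authors' deposited table gives a fold change of 0.597 and an unadjusted DESeq p of 0.0330, and for Zbp1 an unadjusted DESeq p of 0.0620.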

How the data were processed

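The 40 genes and the pathway and marker lists were chosen with earlier results of these data known. Per the submitters' processing notes, the authors' tools included TopHat, Cufflinks, CASAVA 1.8.2 and DESeq, with mouse build mm9; their settings are not given in those notes. Per the file headers, the authors deposited FPKM per gene and isoform, read coverage and length of each isoform as unscaled signal, and 1 DESeq table for the series. The columns deposited there are normalized group means, a fold change (ratio), the log2 of this fold change, and p-values before and after adjustment.

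From these, log2(FPKM + 0.1) of genes averaging at least 0.2 FPKM was fitted with limma 3.58.1 (R 4.3.3; prior variance following the mean), two-sided, and called at a Benjamini-Hochberg adjusted p under 0.05. This scale understates changes of low genes. Rows without a successful estimate in every library (344 of 23699) were left out. Reads were estimated from coverage with a length correction of 210.3 bases; 81.8% to 83.3% of values were whole within 0.05, so no count model was a main test. Without molecular identifiers, reads are not independent molecules. In each role, the gene with the highest mean, the one with the smallest p and any without overlap are given in full, and the 3 smallest p of each pathway list. Gene coordinates are on mm9, promoters on GRCm38.p6 from RefSeq. Alternatives were the pseudocount, filter, scaling, prior, library weights, a block, single libraries left out and limma-voom on the estimated reads; a sex term and the 4 female libraries alone were added after seeing the data.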

Additional observations from a re-analysis of the deposited data

How the results depend on the processing

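None of the 40 genes was called under any of 18 other settings. Of the 40, 14 kept the sign of their log2 change in every setting, 13 of them lower (Ifih1, Zbp1, Isg15, Usp18, Ifit1, Mx1, Mx2, Oas1a, Oasl2, Gbp6, Gbp7, Dtx3l and Trim30a) and Oasl1 higher, and 26 turned in at least 1. The settings of filter, prior, block and sex term leave the log2 change as it was, so they could not turn a sign. The same count over all genes was not made. The median log2 change of the 40 genes lay between -0.18 and -0.05 when single libraries were left out. For Mx2 the unadjusted limma p ranged from 0.00218 to 0.0783 over the settings that kept it; a minimum of 1 FPKM removed it. Genes of the 40 without overlap numbered 1, but 0 with a minimum of 1 FPKM (7.51% of all genes tested), 2 with quantile normalization (8.61%), 2 with centring on the library median (8.69%), 3 to 7 when a library was left out (14.1% to 19.4%), and 7 with the female libraries alone (29.4%). Over all genes, 0 to 3 were called when a library was left out, against 0 with all 6.

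No label says that same-numbered libraries are paired. Their deviations correlated at 0.21, 0.05 and 0.22 over genes, and those of differently numbered libraries at -0.26 to 0.064. With the replicate number in the fit, the median SD left was 0.145 for the 40 genes (0.285 without it). For all genes it was 0.129 (0.184 without it). With the replicate number as a block, 1 gene of all was called, 850 had an unadjusted p under 0.05 (416 without it), and of the 40, 6 lower and 1 higher did, with a smallest adjusted p of 0.845. With no minimum level, 1 isoform of the 40 genes was called against 0 with it (34 of 24510 isoforms in all, against 5 of 17922), and an unadjusted p gave 1 gene in the authors' deposited table against 0. The isoform called was the minor Iigp1 form NM_001146275, whose mutant values had almost no spread in that fit.

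Of the genes given with a log2 change, 7 turned sign when a single library was left out. The log2 change then ranged from -0.27 to 0.19 for Irf1 (0.024 without control 1, 0.082 without mutant 3), from -0.012 to 0.17 for Irf9, from -0.045 to 0.16 for Bst2 (-0.0073 without mutant 3) and from -0.55 to 0.50 for Igtp (0.053 without mutant 1). It ranged from -0.17 to 0.082 for Parp9 (0.042 without mutant 3), from -0.0040 to 0.055 for Ifi35 (-0.0020 without control 1) and from -0.26 to 0.37 for Cxcl10 (-0.18 without control 2). In the female libraries alone it was 0.0039 for Parp9 and -0.023 for Ifi35, and with quantile normalization -0.025 for Ifi35. The cause was not tested. Depth limits Mx2 (22 to 56 reads) and Ifng (2 to 7 reads).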

Other observations

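A few interferon-related genes outside the 40 also varied widely between libraries of 1 group, and were chosen after their values were seen. Aim2, encoding a sensor of cytosolic DNA, stood at 13.2, 9.38 and 4.81 FPKM in controls and at 14.2, 5.41 and 7.56 FPKM in mutants, highest in the male library of each group. Ifi27l2a, an interferon-induced gene of unsettled function, stood at 24.6, 15.1 and 29.2 FPKM in controls and at 12.2, 35.3 and 37.8 FPKM in mutants. Tgtp2, a further IRG GTPase gene, had its highest value in control 2 like the 5 IRG genes of the report, at 5.09, 11.4 and 6.49 FPKM in controls and at 6.71, 8.59 and 8.33 FPKM in mutants. The groups overlapped for all 3 genes, and 0 were called by limma. Gbp4, a GTPase gene outside the 40 described further up, had by contrast its lowest control value in control 2.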
